A study of Mus musculus with 6 samples.

Results

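Osteopontin, encoded by Spp1, and 8 genes associated with osteoclasts were compared between c-Maf KO and WT macrophages. The 9 genes were chosen by name: Spp1, Acp5, Nfatc1, Tnfrsf11a, Tnfrsf11b, Oscar, Calcr, Gpnmb and Car2. Every non-control array probe with one of these names was taken, which gave 9 of 34650 names and 11 of 55681 probes, with 2 each for Acp5 and Nfatc1 and 1 for each of the other genes. All 11 were well above background on each of the 5 arrays analysed and none was saturated, so all are among the 28273 probes tested.

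Osteoclasts are bone-resorbing cells that form by fusion of myeloid precursors, the lineage that also gives rise to macrophages. The survival factor M-CSF prepares the precursors, and RANK ligand then acts through its receptor RANK, together with signals from immunoreceptors such as OSCAR, to raise the transcription factor NFATc1, which turns on genes for resorption. Several of these genes are also used by macrophages outside bone: osteopontin is a secreted adhesion protein and cytokine of activated macrophages, and GPNMB and the acid phosphatase TRAP are found in macrophages rich in lysosomes.

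The samples were bone marrow-derived macrophages, called M2-like in the labels, from mice carrying c-Maf KO fetal liver cells (3 samples) and from mice carrying WT fetal liver cells (3 samples). The 2 groups shared the culture, in which cells from fetal liver and marrow were grown with M-CSF at 10 ng per ml, given daily from day 4, and no RANK ligand is named. The labels give liver as the tissue, and neither the age of the mice, the share of host cells left in them nor the allele of the knockout is given in the sources used here. Total RNA was hybridised to 1-colour Agilent mouse arrays, of which 5 were analysed from scanner files (c-Maf KO replicates 2 and 3, WT replicates 1 to 3), while c-Maf KO replicate 1 enters through the authors' value table.

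Whether replicates are separate mice is not stated in the labels, so each p-value reflects only how far these samples spread, and that spread may be technical. The number of arrays limits the precision. The 75th percentile of the intensity was 411 to 495 over the arrays, and 48.9% to 50.5% of probes were well above background. The c-Maf KO arrays lay in row 2 and the WT arrays in row 1 of a single slide, and position and genotype cannot be told apart. The targeted gene Maf has 2 kept probes. The one above background on all 5 arrays was at -2.22, -2.36 and -1.92 in c-Maf KO, against 1.92, 1.98 and 2.03 in WT, as log2 ratios in the value table. It fell by 4.14 (SE 0.12, limma, Benjamini-Hochberg adjusted p = 0.000826). On the 5 arrays its difference was -4.12 (adjusted p = 0.00931), and it did not pass without WT replicate 1, 2 or 3 (adjusted p = 0.121, 0.167 and 0.136). The other Maf probe was well above background on 3 of 5 arrays. Its intensity was 6.02 on each c-Maf KO array, against 149, 137 and 157 in WT. It was thus kept only through the WT arrays, and its c-Maf KO level is near the floor, so its fit is no separate support. Relative to the 75th percentile in log2 units, it measured -6.27 ± 0.13 in c-Maf KO (SD, n = 2) and -1.53 ± 0.045 in WT (SD, n = 3), with a limma adjusted p of 0.00115. With the 6 samples its adjusted p was 0.0522. All 9 macrophage markers were kept, among them Csf1r, the M-CSF receptor, which measured -0.060, 0.027 and -0.095 in c-Maf KO and 0.066, 0.096 and -0.027 in WT. Of the 9, 3 were lower in c-Maf KO without overlap in the value table (Adgre1 by -0.22, Cd14 by -0.26 and Fcgr1 by -0.44). Lyz2 was higher without overlap (0.33), and 0 of the 9 were called. Of all probes, 9.26% were lower and 10.2% higher without overlap. In bulk RNA such as this, fewer cells of a type and less RNA per cell cannot be told apart.

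Spp1 has 1 probe, printed here because the Spp1 result rests on it alone. It lies at chr5:104868502-104868561 on the plus strand (mm9), starting at base 628 of its transcript, in coding sequence. The stretch encodes the site where thrombin cuts osteopontin and the integrin-binding motif next to it. No base is marked, so none is in capitals.
Spp1 probe: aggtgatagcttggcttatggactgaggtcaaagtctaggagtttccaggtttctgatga
The promoters of Spp1 and Acp5, the genes with the lowest adjusted p of the 9, are shown next as the 250 bases before a transcription start, from RefSeq (GRCm38.p6). The first is at chr5:104434861-104435110 on the plus strand, before the first of 2 annotated Spp1 starts. The second is at chr9:22130599-22130848 on the minus strand, before the last of 3 annotated Acp5 starts.
Spp1 start 1: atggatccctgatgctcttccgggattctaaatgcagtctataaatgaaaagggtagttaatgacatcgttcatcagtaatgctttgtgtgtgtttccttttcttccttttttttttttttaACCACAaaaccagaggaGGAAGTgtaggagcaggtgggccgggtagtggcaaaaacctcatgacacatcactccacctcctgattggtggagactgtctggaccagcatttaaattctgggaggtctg
Acp5 start 3: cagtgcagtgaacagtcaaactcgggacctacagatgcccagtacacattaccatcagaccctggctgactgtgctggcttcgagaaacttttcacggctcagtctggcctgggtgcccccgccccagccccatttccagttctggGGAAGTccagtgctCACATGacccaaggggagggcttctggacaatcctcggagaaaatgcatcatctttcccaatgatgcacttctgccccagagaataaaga
Capitals mark matches, on either strand, to 3 motifs. The RUNX motif was searched as ACCACA. The ETS motif, the kind that PU.1 binds, was searched as GGAAGT. The M-box, which MITF binds, was searched as CATGTG and is found here on the other strand. In the Spp1 window the RUNX motif began 128 bases and the ETS motif 111 bases before the start, and in the Acp5 window the ETS motif began 104 bases and the M-box 90 bases before it. Of 32851 mouse promoters of the same length, 14.0% held the RUNX motif, 19.7% the ETS motif and 12.3% the M-box. Part of the element that Maf factors bind was also searched, as TGCTGA, on both strands, and 16.1% of promoters held it. The AP-1 motif, searched as TGANTCA, was held by 6.75%. Neither is in these 2 windows. The promoter table held 4 further genes of the 9. Oscar had the Maf motif 202 bases and the M-box 6 bases before its start, and Gpnmb had the RUNX motif 175 bases before its start. The windows of Tnfrsf11a and Calcr, of the other Spp1 start and of the other 2 Acp5 starts held none of the 5 motifs, and the windows printed are those with a match. A match describes the letters only, and the motifs were chosen after parts of the sequence had been seen.

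Spp1 and Acp5 were higher and the immunoreceptor gene Oscar and the RANK gene Tnfrsf11a slightly lower in c-Maf KO, without overlap of the groups, but no probe of the 9 genes passed the test. Tnfrsf11b, a soluble decoy receptor, was also higher without overlap, with WT replicate 1 close to c-Maf KO. Nfatc1, Calcr and Gpnmb differed little between genotypes, with groups that overlapped. Over the 6 samples of the value table, 0 of 11 probes had a limma adjusted p under 0.05, against 0.0212% of all probes tested, and the lowest was 0.131. The 5 arrays also gave 0 of 11, against 0.0248%, with a lowest adjusted p of 0.271. At an unadjusted p under 0.05 there were 6 of 11 in the value table, against 12.1% of all probes, and 3 of 11 on the 5 arrays, against 10.5%. The c-Maf KO and WT samples did not overlap for 4 higher and 2 lower probes in the value table, where 19.4% of all probes do not overlap (10.2% higher, 9.26% lower). For the 5 arrays the same counts, 4 and 2, stood against 29.4% (13.2% higher, 16.2% lower). Since the 2 Acp5 probes share 45 bases, these counts hold Acp5 in duplicate. The median difference of the 11 probes was 0.12 (log2 c-Maf KO minus WT) in the value table, against -0.0038 over all probes. The value table holds the same 5 arrays and c-Maf KO replicate 1, so its values do not replicate those of the arrays.

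**Figure D1:**
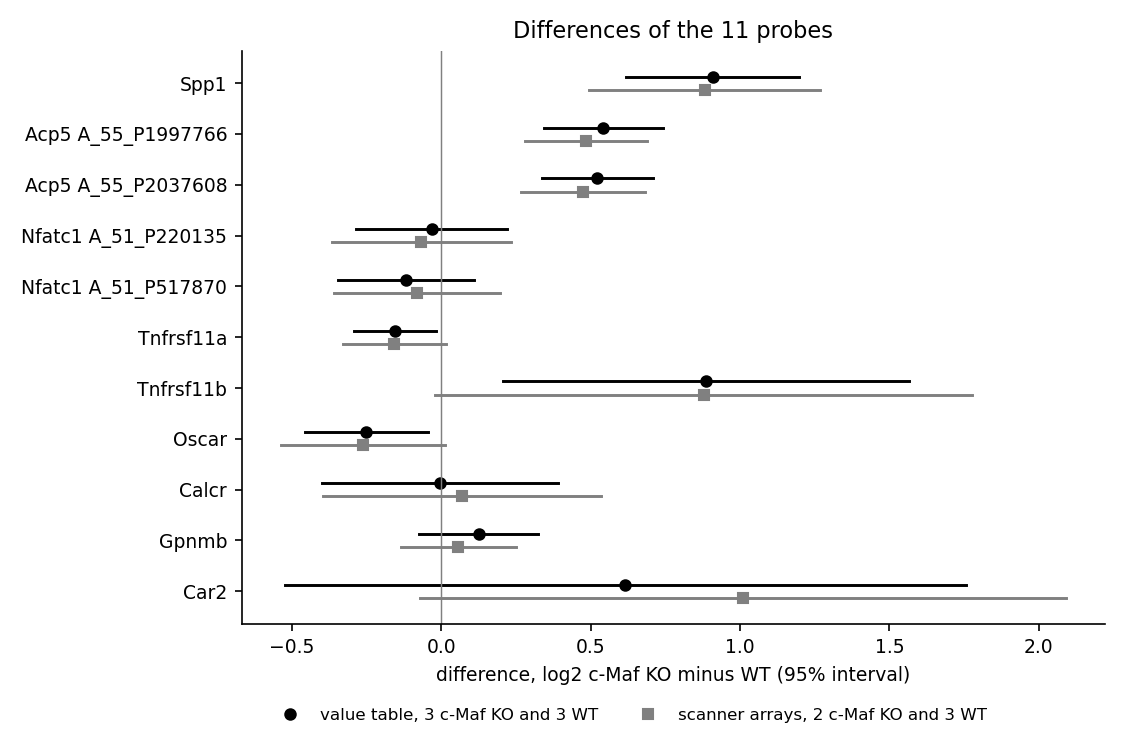
Difference of each of the 11 probes, in log2 c-Maf KO minus WT on the horizontal axis, with 95% intervals from limma; circles are the value table (3 c-Maf KO and 3 WT samples) and squares the scanner arrays (2 c-Maf KO and 3 WT). Spp1, at 0.91, and both Acp5 probes, at 0.54 and 0.52, lie right of 0 with intervals that exclude 0. The intervals of Tnfrsf11b and Car2 are the widest.

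Spp1 gave an intensity of 7647 and 10463 on c-Maf KO arrays 2 and 3, against 5074, 4150 and 4185 on WT arrays 1 to 3. Both c-Maf KO arrays were brighter than every WT array, and WT replicate 1 was the brightest of its group. Relative to the array's 75th percentile, the level was 4.27 ± 0.19 in c-Maf KO (SD, n = 2) and 3.39 ± 0.19 in WT (SD, n = 3), in log2 units. The difference was 0.88 (SE 0.15, limma adjusted p = 0.271). In the value table, where each value is a log2 ratio to the probe's median over the 6 samples, Spp1 was at 0.47, 0.28 and 0.53 in c-Maf KO replicates 1 to 3, against -0.28, -0.54 and -0.63 in WT replicates 1 to 3. The groups did not overlap, and the nearest pair was c-Maf KO replicate 2 and WT replicate 1. These 2 lie at equal distances from 0 because the median of 6 samples is the mean of the middle pair, which holds for every probe. The difference was 0.91 (SE 0.12, 95% interval 0.62 to 1.20), so Spp1 was 1.88-fold higher in c-Maf KO (interval 1.53 to 2.30). Its unadjusted p was 0.000265 and its adjusted p 0.131. It passed with trend and robust variance estimation (adjusted p = 0.0365 in the value table), where 50 probes were called in all instead of 6, and not on the 5 arrays with the same estimation (0.0846).

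**Figure D2:**
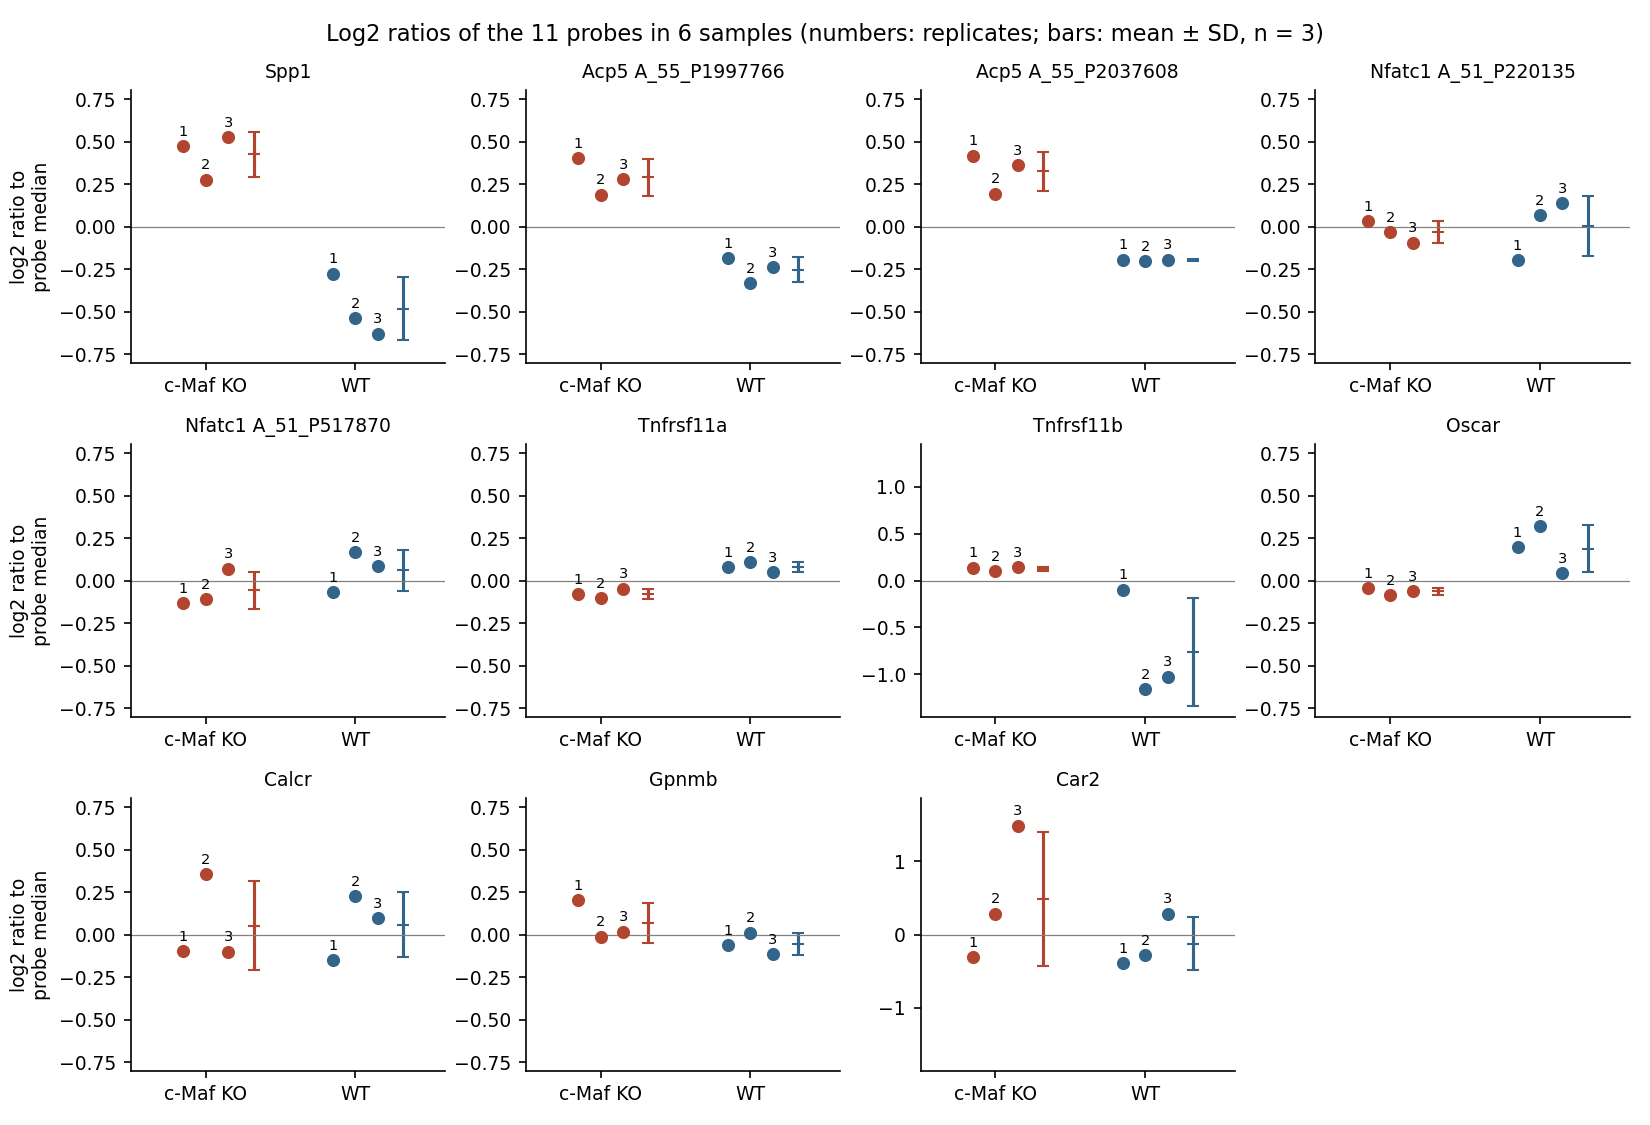
Log2 ratio to the probe's median over the 6 samples on the vertical axis, by probe, with c-Maf KO replicates left and WT replicates right in each panel; points are samples and bars are the mean ± SD of 3 samples. The vertical range differs between panels and is widest for Tnfrsf11b and Car2, where single samples (WT replicate 1 and c-Maf KO replicate 3) lie apart from the rest of their group.

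Acp5 encodes tartrate-resistant acid phosphatase (TRAP), an enzyme used to stain osteoclasts. Its probes lie on the minus strand at chr9:21931175-21931234 (A_55_P1997766) and chr9:21931190-21931249 (A_55_P2037608), in mm9. The first gave intensities of 26648 and 32686 in c-Maf KO, against 20010, 17771 and 20335 in WT. The other gave 32904 and 42465 in c-Maf KO, against 24460, 23855 and 25763 in WT. Each c-Maf KO array was brighter than each WT array with both probes. As log2 ratios, the first probe was at 0.40, 0.19 and 0.28 in c-Maf KO, against -0.19, -0.33 and -0.24 in WT. The other was at 0.42, 0.19 and 0.36 in c-Maf KO, against -0.19, -0.20 and -0.20 in WT. As for Spp1, c-Maf KO replicate 2 was lowest of its group and WT replicate 1 highest of its own, while the order of the other replicates differed. With probe A_55_P2037608 the WT samples were nearly equal. The differences were 0.54 (SE 0.081, 95% interval 0.34 to 0.74, 1.46-fold higher) and 0.52 (SE 0.076, interval 0.34 to 0.71, 1.44-fold higher). Their limma adjusted p was 0.149 and 0.140 in the value table and 0.271 for both on the 5 arrays. With trend and robust variance estimation both passed on the 5 arrays (adjusted p = 0.0190 and 0.0202), where 123 probes were called instead of 7, and neither passed in the value table (0.0579 and 0.179).

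Car2, carbonic anhydrase 2, supplies the protons that osteoclasts secrete, and is abundant in red blood cells. Its probe is at chr3:14900206-14900265 on the plus strand (mm9). Its intensity was 99.4 and 263 in c-Maf KO, against 60.8, 64.2 and 102 in WT. The value table gave -0.31, 0.28 and 1.48 in c-Maf KO, against -0.39, -0.28 and 0.29 in WT. The groups overlapped, and c-Maf KO replicate 3 stood above all other samples. The difference was 0.62 (SE 0.47, 95% interval -0.52 to 1.76, limma adjusted p = 0.623). Leaving out c-Maf KO replicate 3 gave 0.12, and leaving out c-Maf KO replicate 1 gave 1.01. The 5 arrays gave 1.01 (SE 0.42, adjusted p = 0.498), 0.40 without c-Maf KO replicate 3, 1.62 without c-Maf KO replicate 2 and 0.60 with normexp background correction. Of 7 erythroid markers, 2 were kept (Hba-a1 and Car1), and the rest, among them Hbb-b1, Alas2 and Klf1, failed the filter on dim probes. The mean log2 ratio of the 2 was -0.041, 0.065 and 0.027 in c-Maf KO, against -0.15, 0.013 and 0.20 in WT. The part of red cells in the Car2 values was not tested.

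Tnfrsf11a encodes RANK, the receptor for RANK ligand (chr1:107741892-107741951, plus strand, mm9). Its intensity was 4352 and 5205 in c-Maf KO, against 4810, 4824 and 4969 in WT. As log2 ratios it was at -0.079, -0.11 and -0.049 in c-Maf KO, against 0.078, 0.11 and 0.049 in WT. Every c-Maf KO sample was below every WT sample in these scaled values, although the intensities overlapped. That difference was -0.16 (SE 0.056, 95% interval -0.29 to -0.020), so WT was 1.11-fold higher (unadjusted p = 0.0313, limma adjusted p = 0.364). The 5 arrays also gave -0.16 (adjusted p = 0.508).

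Tnfrsf11b encodes osteoprotegerin, a secreted decoy that binds RANK ligand and keeps it from RANK, and that is made mainly by stromal and osteoblast lineage cells (chr15:54082760-54082819, minus strand, mm9). Its intensity was 492 and 583 in c-Maf KO, against 418, 197 and 232 in WT. Its log2 ratios were 0.14, 0.098 and 0.14 in c-Maf KO, against -0.098, -1.16 and -1.02 in WT. The c-Maf KO samples lay close together, WT replicate 1 was just below them, and the other WT samples were far lower. The difference was 0.89 (SE 0.28, 95% interval 0.21 to 1.57), or 1.85-fold higher in c-Maf KO (interval 1.15 to 2.96), with an unadjusted p of 0.0189 and a limma adjusted p of 0.312. The 5 arrays gave 0.88 (SE 0.35, adjusted p = 0.481). Without WT replicate 1 the value table gave 1.22 (SE 0.079, adjusted p = 0.0372), in a setting that called 31 probes in all, 27 of them higher, against 6 with all samples. On the 5 arrays without WT replicate 1 it was 1.21 (adjusted p = 0.136).

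Stromal markers had a like spread among the WT samples. Of 14 stromal and fibroblast markers, 13 were kept and Lum was not. By the brightest kept probe of each gene, all 13 were higher in c-Maf KO in the value table, with a median difference of 0.91. Of these, 9 did not overlap, against 10.2% of all probes higher without overlap, while Fn1 hardly differed (0.0062). The other kept probes measured 0.87 and -0.46 for Sparc and 1.20 for Cxcl12. None of the 13 genes passed the test (limma, adjusted p). Of the 13, 10 had an unadjusted p under 0.05, against 12.1% of all probes. Their mean log2 ratio was 0.19, 0.16 and 0.50 in c-Maf KO replicates 1 to 3, against -0.086, -0.90 and -0.64 in WT replicates 1 to 3. WT replicate 1 thus stood nearest to c-Maf KO, as it did for Spp1 and Tnfrsf11b. For Acp5 it was also the highest WT sample, but with probe A_55_P2037608 the WT samples were nearly equal (-0.19, -0.20 and -0.20). Their summed signal, in multiples of the array's 75th percentile, was 294 and 329 in c-Maf KO, against 243, 158 and 173 in WT. Of 8 osteoblast markers, 4 were kept (Alpl, Runx2, Ibsp and Col1a1, the last also in the stromal list), and Sp7, Bglap, Phex and Dmp1 were not. Their summed signal was 13.7 and 15.3 in c-Maf KO, against 11.3, 6.38 and 6.52 in WT, and nearly all of it was Col1a1. Alpl was at 0.037, 0.57 and 0.44 in c-Maf KO, against -0.037, -0.72 and -1.004 in WT, and Runx2 at 0.18, 0.15 and 0.079, against -0.47, -0.079 and -0.80. The difference of Runx2 was 0.59 with this probe and -0.12 with its other kept probe. Ibsp ranged from -0.76 to 0.33 in c-Maf KO and from -1.84 to 1.60 in WT, with WT replicate 1 the highest. The part of these cells in the Spp1, Acp5 and Tnfrsf11b values was not tested. Without WT replicate 1 the Spp1 difference was 1.01 (SE 0.10, adjusted p = 0.0644). The 9 macrophage markers summed to 1082 and 1040 in c-Maf KO, against 1144, 1175 and 1074 in WT, with 8 of 9 lower in c-Maf KO in the value table, a median of -0.13 and 0 called (4 at an unadjusted p under 0.05).

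**Figure D3:**
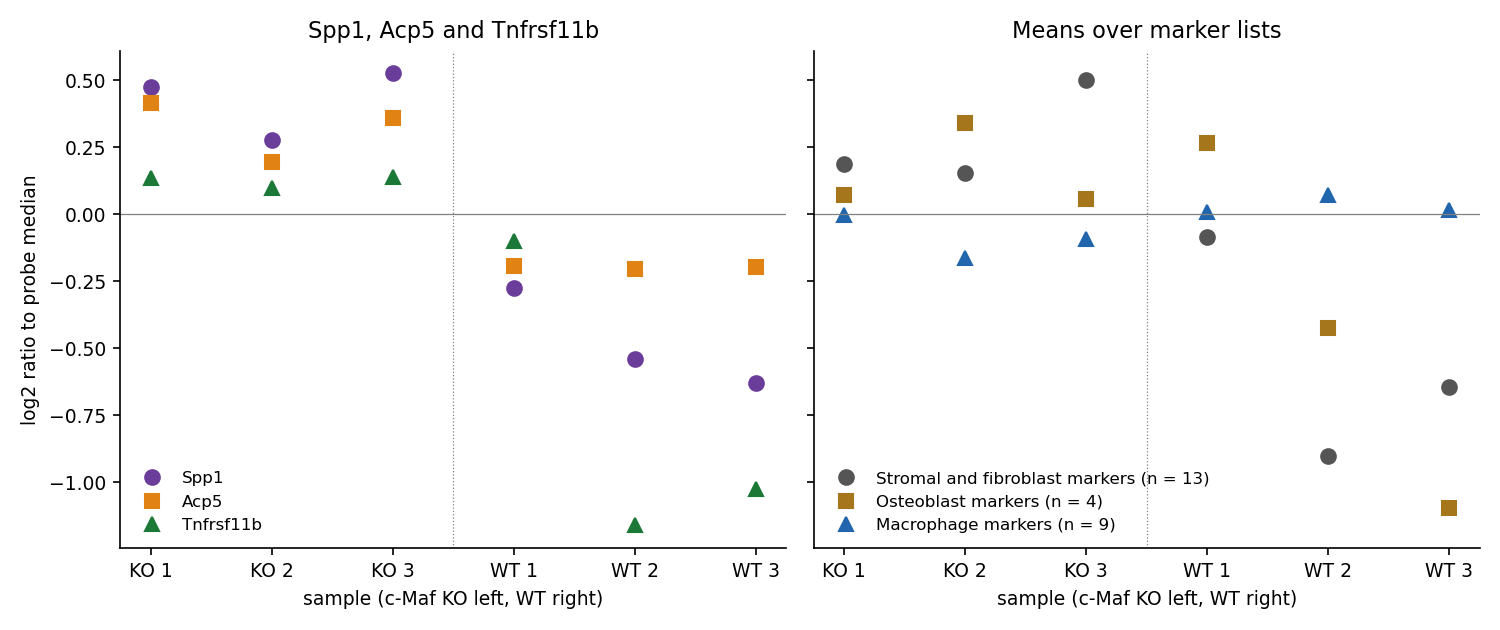
Log2 ratio to the probe's median by sample, with c-Maf KO replicates left and WT replicates right; the left panel shows Spp1, Acp5 (probe A_55_P2037608) and Tnfrsf11b, and the right panel the means of 13 stromal, 4 osteoblast and 9 macrophage markers. WT replicate 1 is the WT sample nearest to c-Maf KO for Spp1, Tnfrsf11b and the stromal mean, and the osteoblast mean of 0.27 in WT replicate 1 rests on Ibsp, at 1.60, while the other 3 osteoblast markers are at -0.037 (Alpl), -0.47 (Runx2) and -0.023 (Col1a1) there.

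Nfatc1 encodes the transcription factor that drives osteoclast differentiation. Its 2 probes are on chromosome 18, on the minus strand and 41715 bases apart, and match different RefSeq transcripts. Probe A_51_P220135 had an intensity of 460 and 506 in c-Maf KO, against 399, 470 and 531 in WT. Its log2 ratio was 0.033, -0.033 and -0.095 in c-Maf KO, against -0.20, 0.066 and 0.14 in WT. Probe A_51_P517870 had 1501 and 1952 in c-Maf KO, against 1501, 1734 and 1759 in WT. Its log2 ratio was -0.13, -0.11 and 0.069 in c-Maf KO, against -0.069, 0.17 and 0.084 in WT. The groups overlapped with both probes. The differences were -0.033 (95% interval -0.28 to 0.22, limma adjusted p = 0.919) and -0.12 (interval -0.34 to 0.11, adjusted p = 0.635).

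Oscar encodes the osteoclast-associated receptor, which binds collagen and signals through the Fc receptor gamma chain (chr7:3561419-3561478, minus strand, mm9). Its intensity was 113 and 132 in c-Maf KO, against 133, 143 and 127 in WT. The log2 ratios were -0.044, -0.085 and -0.063 in c-Maf KO, against 0.20, 0.32 and 0.044 in WT. The groups did not overlap, although raw intensities did, since the c-Maf KO array with 132 also had the highest 75th percentile. The difference was -0.25 (SE 0.084, 95% interval -0.46 to -0.045), so WT was 1.19-fold higher (unadjusted p = 0.0248, limma adjusted p = 0.339).

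Calcr encodes the receptor for calcitonin, the hormone that restrains mature osteoclasts (chr6:3635940-3635999, minus strand, mm9). Its intensity reached 128 in c-Maf KO, and was 87.5, 111 and 109 in WT. The log2 ratios were -0.097, 0.36 and -0.10 in c-Maf KO, against -0.15, 0.23 and 0.097 in WT. Replicate 2 was the highest sample of each group, and the groups overlapped. The difference was -0.0045 (95% interval -0.40 to 0.39) in the value table and 0.069 on the 5 arrays (interval -0.40 to 0.53), and its sign turned with several settings.

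Gpnmb encodes a transmembrane glycoprotein of lysosome-rich macrophages and osteoclasts, also called osteoactivin (chr6:49006386-49006445, plus strand, mm9). Its intensity was 99820 and 117106 in c-Maf KO, against 93832, 96945 and 95280 in WT, below the saturation value of 778715 in the file headers. Its log2 ratios were 0.20, -0.012 and 0.017 in c-Maf KO, against -0.062, 0.012 and -0.12 in WT. The groups overlapped. The difference was 0.12 (SE 0.082, 95% interval -0.076 to 0.32, limma adjusted p = 0.582).

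Genes that act with these 9 were compared as lists, with values from the value table unless the 5 arrays are named. The RANK signalling list had 20 of 21 genes kept, with 7 higher, 13 lower, 0 called and a median of -0.042. Tnfsf11, which encodes RANK ligand, failed the filter on dim probes (2 or more arrays well above background). The largest differences on the 5 arrays within that list were those of the AP-1 genes Fosl1 and Fos, the NF-kappaB gene Relb and the adaptor gene Traf6. Fosl1 measured 0.79 (adjusted p = 0.364), with 0.017, 0.044 and 0.56 in c-Maf KO, against -0.017, -0.75 and -0.97 in WT. Fos measured 0.32, Relb -0.26 and Traf6 -0.31 (adjusted p = 0.544, 0.382 and 0.257), and other Traf6 probes measured 0.11 and -0.69.

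The costimulation list, of receptors and adaptors that work beside OSCAR, had all 7 genes kept, with 3 higher, 4 lower and a median of -0.030. Sirpb1a, a signal-regulatory receptor that pairs with the adaptor DAP12, measured 0.82 (SE 0.15, adjusted p = 0.193). It was at 0.65, 0.20 and 0.51 in c-Maf KO, against -0.60, -0.20 and -0.31 in WT, without overlap, and its other probes measured 0.84 and 0.66. Trem2, Pirb and Syk measured -0.10, -0.11 and -0.10. Fcer1g, the partner chain of OSCAR and named here after its value was seen, measured 0.027 (95% interval -0.16 to 0.21).

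The resorption and fusion list had 15 of 16 genes kept, with 12 higher, 3 lower, 0 called and a median of 0.10. Of the 15, 4 had an unadjusted limma p under 0.05, against 12.1% of all probes. Mmp9 was not kept. Ctsk, the collagen-degrading cathepsin K, measured 0.29 (SE 0.10, limma adjusted p = 0.364). Ocstamp, a fusion gene, measured 0.24, and Itgb3, an integrin chain that binds osteopontin, -0.28 (-0.09 with its other kept probe). Ocstamp was at 0.029, 0.55 and -0.0065 in c-Maf KO, against -0.14, -0.022 and 0.0065 in WT, with overlap. Src, a kinase needed for the ruffled border, was well above background on 2 c-Maf KO arrays and on no WT array. It passed the filter on dim probes only through the group where it was higher, so its direction is not independent of the filter. It is among the 12 higher and the 4 at an unadjusted p under 0.05. On the 5 arrays its measured means were -3.68 in c-Maf KO and -4.47 in WT (limma adjusted p = 0.362). No fold is given for Src, since no WT array was well above background. With -0.060 in the value table, c-Maf KO replicate 1 was within the WT range for Src.

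The transcription factor list had 16 of 17 genes on the array and kept, with 7 higher, 9 lower and a median of -0.028. Nfatc2, a relative of Nfatc1, measured -0.45 (SE 0.056, 95% interval -0.59 to -0.31, adjusted p = 0.131). It was at -0.25, -0.27 and -0.19 in c-Maf KO, against 0.19, 0.23 and 0.22 in WT, without overlap, and its other probe measured -0.46. Nfatc2 passed with trend and robust variance estimation (adjusted p = 0.0365 in the value table and 0.0202 on the 5 arrays). Nfatc4 measured 0.30, Prdm1 -0.19 and Irf8 -0.076 (adjusted p = 0.374, 0.533 and 0.780). Mitf, a driver of Acp5 and Gpnmb, was named after its value was seen and measured 0.0078 (interval -0.23 to 0.24).

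The list of osteopontin receptors, processing enzymes and relatives had 12 of 18 genes kept, with 7 higher, 5 lower, 0 called and a median of 0.037. Itga9 encodes an integrin chain that binds the motif under the Spp1 probe. It measured -0.92 (SE 0.13, 95% interval -1.23 to -0.61, adjusted p = 0.132), with -0.28, -0.70 and -0.55 in c-Maf KO, against 0.45, 0.28 and 0.51 in WT. The Itga9 groups did not overlap, and the difference on the 5 arrays was -1.04 (adjusted p = 0.164), and -0.54 with normexp background correction (adjusted p = 0.0791). With trend and robust variance estimation Itga9 passed on the 5 arrays (adjusted p = 0.0344) and not in the value table (0.0675). Itgav, another osteopontin-binding integrin chain, measured 0.33 (SE 0.10, adjusted p = 0.313), Thbd, a thrombin receptor, -0.12, and the metalloproteinase gene Mmp12 0.22. The genes not kept were Itgb6, F2, Mmp3, Mmp7, Dmp1 and Dspp.

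The list of Gpnmb relatives and lysosome genes had 5 of 6 genes kept, all 5 lower by the brightest kept probe, with a median of -0.11. Among them Ctsd, named after its value was seen, measured -0.0084, and its other kept probe measured 0.21. Sdc4, syndecan-4, a heparan sulfate proteoglycan to which GPNMB binds, fell by 1.22 (SE 0.067, limma adjusted p = 0.0129), and was the only gene of the 7 lists called in either source. It was at -0.63, -0.71 and -0.55 in c-Maf KO, against 0.55, 0.62 and 0.60 in WT. On the 5 arrays its difference was -1.22 (adjusted p = 0.0755). In the value table it did not pass without WT replicate 2 or 3 or any c-Maf KO replicate (adjusted p = 0.0964, 0.0911, 0.0697, 0.0975 and 0.0877), at differences of -1.26 to -1.18.

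The carbonic anhydrase list, of genes related to Car2, had 8 of 11 kept, with 1 higher, 7 lower and a median of -0.078. Car14 measured -0.47 (SE 0.26, adjusted p = 0.521), Car15 -0.16 and Car9 -0.11. Car11 measured -0.67 (95% interval -1.96 to 0.61) and was not well above background on either c-Maf KO array, so no fold is given. It was kept only through 2 WT arrays, the group where it was higher, and still counts among the 7 lower.

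**Figure D4:**
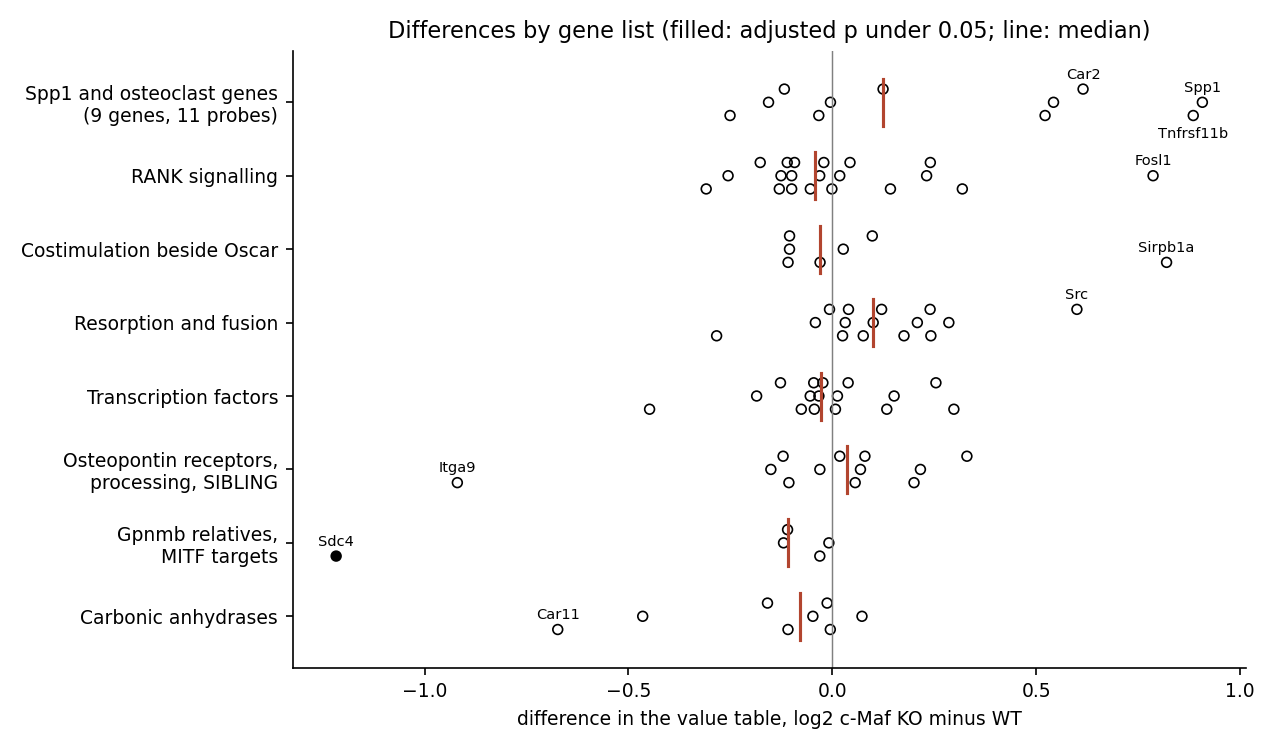
Difference in the value table, log2 c-Maf KO minus WT, for the 11 probes (top row) and for the kept genes of 7 lists, 1 point per probe or gene; the vertical red line is each row's median and a filled point has an adjusted p under 0.05. Sdc4, at -1.22, is the single filled point, and the row medians lie between -0.11 and 0.12.

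The genes whose log2 ratios over the 6 samples lay nearest to those of Spp1, by root mean square difference among 13062 genes, were Ak1, Zfp503, Pakap (Akap2 on the array), Tmem45a and Pfn2, at 0.080, 0.092, 0.092, 0.10 and 0.10 log2 units. Ak1, adenylate kinase 1, was at 0.38, 0.25 and 0.43 in c-Maf KO, against -0.25, -0.61 and -0.52 in WT. Their adjusted p was 0.132 to 0.216, so none was called, and none is among the 9 genes or the 7 lists.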

How the data were processed

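The deposited scanner files hold spot intensities, which the authors obtained with Feature Extraction (Agilent, version 10.7.3.1), as the submitters' processing notes record. The deposited value table holds a linear ratio to each probe's median over 6 samples: its log2 deviations had a correlation of 1.00 with those of percentile-scaled scanner signals on each array, and the 9 genes differed by at most 0.013 between sources. The sources used here do not give the authors' treatment of low values in it. Its column medians were -0.057, 0.068 and -0.054 for c-Maf KO replicates 1 to 3 and 0.024, 0.0070 and -0.0088 for WT replicates 1 to 3 (log2).

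Scaling divided each intensity by the 75th percentile of its array, before log2. Flagged spots (134 to 167 of 59305) were left out, 13 probes were dropped, and 28273 of 55681 probes well above background on at least 2 arrays were kept. Differences were tested with limma version 3.58.1 (lmFit, eBayes; R version 4.3.3) on the 5 arrays and on log2 of the value table with 6 samples, with Benjamini-Hochberg adjustment over all kept probes and a threshold of 0.05. The fit was tested on simulated data. Probes of the 9 genes were kept apart, and a listed gene was represented by its brightest kept probe. Names were updated by RefSeq accession for 17563 kept probes, and coordinates are those of the array files (mm9). No fold is given for a listed gene that was well above background on no array of a group.

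The members and lists were chosen with earlier results of these data known. The named genes are the 9 genes, Maf, every listed gene called in either source, otherwise the 4 per list with the largest difference on the 5 arrays, and the 5 genes nearest to Spp1. Alternatives were normexp correction (offset 50), other scaling, filters and probe rules, trend and robust estimation (statmod version 1.5.0), a replicate block, WT replicates 1 and 3 averaged (their file names share a tag), each replicate left out and a threshold of 0.1.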

Additional observations from a re-analysis of the deposited data

How the results depend on the processing

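With trend and robust estimation, 2 probes of the 9 genes were called on the 5 arrays (both Acp5) and 1 in the value table (Spp1), against 0 in the analysis reported. Leaving out 1 replicate called 0 to 0 on the 5 arrays and 0 to 1 in the value table (Tnfrsf11b without WT replicate 1). The other settings called 0. Calls over all probes were 7 on the 5 arrays, against 22 with normexp, 123 with trend and robust, 1 with probes above background on all arrays, 2 with WT replicates 1 and 3 averaged, 12 at a threshold of 0.1 and 2 to 18 without 1 replicate. In the value table they were 6, against 50, 2 without a filter on dim probes, 2 averaged, 11 at 0.1 and 2 to 31 without 1 replicate. Same-numbered samples deviated with correlations of -0.0043, -0.044 and 0.081, so the numbers show no pairing. A replicate block called 0 of the 11 probes in both sources, and 0 and 7 probes in all. Calcr turned sign on the 5 arrays with the replicate block (-0.032) and in 2 of the analyses with 1 replicate left out (-0.032 without WT 1, -0.15 without c-Maf KO 2; all from -0.15 to 0.29). Calcr turned in the value table with centred columns (0.017), quantile normalization (0.015) and without c-Maf KO 1 (0.070), c-Maf KO 3 (0.072), WT 2 (0.079) or WT 3 (0.015), with all such analyses from -0.16 to 0.079. Nfatc1 probe A_51_P517870 turned to 0.016 on the 5 arrays without c-Maf KO replicate 2 (from -0.18 to 0.016 with 1 replicate left out). Probe A_51_P220135 turned to 0.034 in the value table without WT replicate 3 (from -0.13 to 0.034). The cause was not tested. No other probe of the 9 genes changed direction in these settings: Spp1 ranged from 0.75 to 1.02 on the 5 arrays and from 0.83 to 1.01 in the value table. The Sdc4 call in the value table was also lost with quantile normalization, no filter on dim probes, WT replicates 1 and 3 averaged and the replicate block (adjusted p = 0.0545, 0.136, 0.125 and 0.183). The Maf call on the 5 arrays was also lost with the last 2 of these (0.152 and 0.268). Signal over background limits Oscar, Calcr and Car2, with intensities of 60.8 to 263, and with normexp the 5 arrays gave Car2 0.60 against 1.01 and Itga9 -0.54 against -1.04.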
